A study of Mus musculus with 22 samples.

Results

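Of the 34584 genes counted besides the transgene, 10 are described here: Slc17a6, Tcf7l2, Prkcd, Lhx9, Shox2, Pou4f1, Synpo2, Ntng1, Calb2 and Barhl2. They were picked as genes of the thalamus and the midbrain tectum, with earlier results of these data known. All 10 were found by symbol in the annotation. They did not move as a set: Calb2, Barhl2 and Prkcd were lowest in the cerebellum where the other 7 were highest, so the genes are called below by their own names. RNA was sequenced from 22 pieces of frozen tissue of C57BL/6 mice. Thymus and cerebrum each came from 4 Tol and 4 WT animals, cerebellum from 2 Tol and 4 WT animals. Tol mice were heterozygous for a transgene of scrambled reporter protein fragments under the CAG promoter, placed 3′ of Col1a1 in C57BL/6J embryonic stem cells. A single strain carried it, and the WT mice were littermates. Animals entered experiments at 7 to 14 weeks of age, and the age of each sequenced mouse is not given in the sources used here. Reads were single-end, from stranded poly(A) libraries, and each library held between 14543698 and 34776973 counts in all (median 21577753.5). The 6 cerebella were close in depth, from 23340005 to 27057348 counts. The deposited values were estimated counts per gene. Levels below are CPM, the count as a share of the library's total, scaled by TMM factors, and levels of different genes are compared after division by the length of their merged exons (CPM per kb). Only sums over lists, and the gene with the highest CPM on a list, are taken without that division.

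The thalamus relays sensory and motor signals to the cortex, and the tectum, the roof of the midbrain, turns visual and auditory input into orienting movements. Most of their output neurons release glutamate and load it into vesicles with the transporter encoded by Slc17a6, while cerebellar granule cells and most cortical neurons rely on its relative Slc17a7. Transcription factors such as Tcf7l2, Lhx9, Shox2, Pou4f1 and Barhl2 are switched on in distinct territories of the diencephalon and midbrain in the embryo, and several of them stay on in the adult neurons. The cerebellum lies directly behind the tectum and above the hindbrain.

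Several libraries stood apart, and the values below have to be read library by library. The library labelled cerebellum Tol 2 lay far from the other 5. Whether it was dissected as cerebellum alone or holds tissue of neighbouring regions could not be told from the data, and it is called a cerebellum below by its label only. Among 14754 genes with a mean of at least 1 CPM in cerebellum, 376 (2.55%) were at least 2-fold above its highest counterpart, on CPM + 1, and 390 (2.64%) at least 2-fold below its lowest. In the other cerebella taken the same way, fewer genes were that far above (2 in Tol 1, 2 in WT 1, 34 in WT 2, 0 in WT 3 and 36 in WT 4). The markers of cerebellar neurons were low in Tol 2, with sums near those of the cerebra. Of 12 granule cell genes, 11 were at least 2-fold below the lowest other cerebellum, and their summed level was 337 CPM against 3457 to 8179 CPM, and 262 to 317 CPM in the 8 cerebra. Cbln3, with the highest CPM of these in the other 5, stood at 30.9 CPM in Tol 2, with 727 to 1994 CPM in the others. Of 12 Purkinje cell genes, 9 were that far below, with a sum of 1714 CPM against 4542 to 11210 CPM, and 1494 to 2516 CPM in the cerebra. Itpr1, with the highest CPM in the other 5, was at 465 CPM against 2043 to 5381 CPM. None of the genes on either list was at 0 in any cerebellum. Cerebellum Tol 2 held 3479 counts of the Tol transcript and Tol 1 held 4628, while the WT cerebella held 0 or 1.

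WT cerebella differed among themselves too. In WT 2 the granule cell genes summed to 3457 CPM and the Purkinje cell genes to 4542 CPM, the lowest values after Tol 2. Its myelin genes of oligodendrocytes summed to 18346 CPM, against 4994 to 10141 CPM elsewhere, and its list of dopamine, serotonin and brainstem genes to 229.8 CPM against 10.1 to 66.5 CPM. Genes of the choroid plexus, the tissue that makes cerebrospinal fluid, summed to 4813 CPM in WT 4 and 1345 CPM in WT 2, against 21.4 to 39.4 CPM in the other 4. In cerebrum, the 12 striatum genes summed to 4030 CPM in WT 3 and 2281 CPM in Tol 4, against 269 to 494 CPM in the other 6. The tissue labels were otherwise matched by their markers. In WT cerebrum over WT cerebellum, 11 of 12 cortex and hippocampus genes were higher and 1 lower by edgeR's quasi-likelihood test (adjusted p under 0.05), and 11 of 12 granule cell genes were lower, where 24.2% of all genes were higher and 25.6% lower. In WT thymus over WT cerebrum all 12 thymus genes were higher, as were 45.1% of all genes. The part of these marker differences in the results below was not tested.

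**Figure D1:**
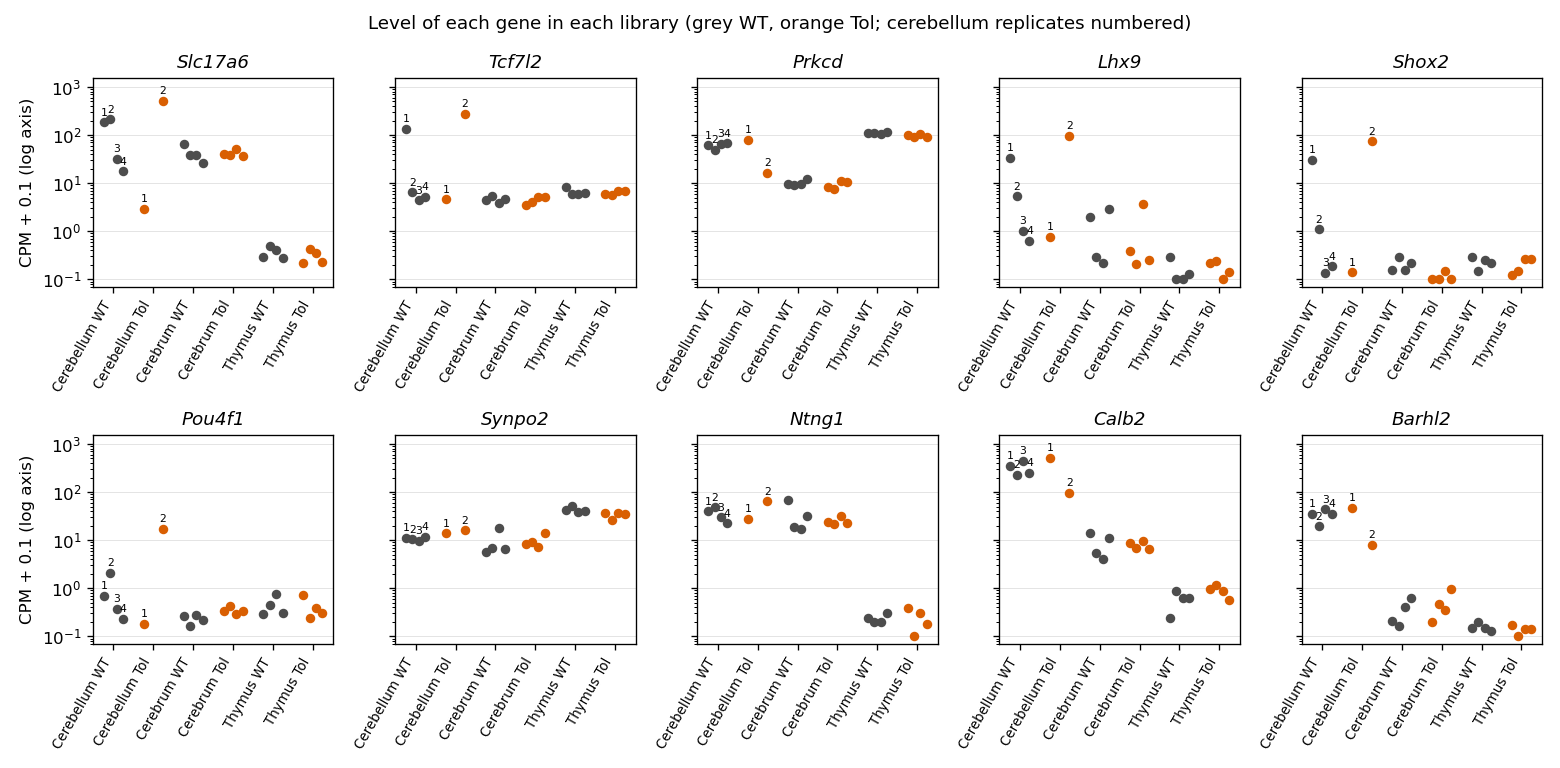
Level of each of the 10 genes in each of the 22 libraries, as CPM + 0.1 on a log axis, with 1 point per library, grey for WT and orange for Tol; cerebellum points carry their replicate number. Cerebellum Tol 2 is the highest cerebellum for Slc17a6 (516 CPM) and Tcf7l2 (274 CPM) and the lowest for Prkcd (16.5 CPM), Calb2 (94.6 CPM) and Barhl2 (7.98 CPM).

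Slc17a6 (ENSMUSG00000030500; GRCm38 chromosome 7, 51622006 to 51671119, plus strand) varied widely between cerebella. It stood at 2.84 CPM in Tol 1 and 516 CPM in Tol 2, and at 184, 212, 31.7 and 17.4 CPM in WT 1, WT 2, WT 3 and WT 4. The genotypes overlapped entirely, since Tol mice gave both the lowest and the highest value. Tol 2 was 2.44 times the next library, WT 2. Slc17a7, the granule cell transporter, ran the other way: 562 and 19.5 CPM in Tol 1 and Tol 2, and 428, 257, 534 and 459 CPM in WT 1 to WT 4. Per length, Slc17a6 was above Slc17a7 in Tol 2 alone, with 95.5 against 3.62 CPM per kb. In WT 2 the pair stood closest, at 39.2 and 47.8 CPM per kb. Another member of the family, Slc17a8, was at 0.0824 to 1.26 CPM in all 6 cerebella. In bulk tissue, more cells that carry a transcript and more RNA per cell cannot be told apart, for this gene and for all that follow.

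In cerebrum Slc17a6 was steadier. The Tol cerebra had 39.3, 38.4, 50.5 and 37.3 CPM and the WT cerebra 63.8, 38.6, 38.1 and 26.6 CPM, a mean of 41.4 ± 6.14 CPM (SD, n = 4) and 41.8 ± 15.7 CPM (SD, n = 4). The lowest and the highest cerebrum were both WT. In thymus it was close to the limit of detection, with 3 to 8 counts per library. A level of 3 counts, taken as the smallest detectable, corresponds to 0.0863 to 0.206 CPM before scaling in these libraries and covers counting error only.

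Tcf7l2 (ENSMUSG00000024985; chromosome 19, 55741820 to 55933654, plus strand) encodes a transcription factor of the Wnt pathway that thalamic and habenular neurons keep through life. Its cerebellar levels split sharply: 274 CPM in Tol 2 and 136 CPM in WT 1, against 4.53 CPM in Tol 1 and 6.36, 4.32 and 5.11 CPM in WT 2, WT 3 and WT 4. The 4 low cerebella resembled cerebrum, where the 8 libraries ran from 3.44 to 5.27 CPM, and thymus, where they ran from 5.48 to 8.36 CPM. So Tcf7l2 was high in 1 cerebellum of each genotype, and WT 2, the second highest for Slc17a6, was not among them. Of its relatives, Lef1 was at 33.5 CPM in Tol 2 and 6.88 to 8.80 CPM in the other cerebella, and so was not high in WT 1. Tcf7 (2.74 to 5.64 CPM) and Tcf7l1 (6.62 to 9.32 CPM) varied little among the 6.

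Lhx9 (ENSMUSG00000019230; chromosome 1, 138825186 to 138848577, minus strand), a LIM homeodomain factor of the developing thalamus and tectum, followed Tcf7l2. It stood at 95.4 CPM in Tol 2 and 33.8 CPM in WT 1, at 5.19 CPM in WT 2, and at 0.660, 0.927 and 0.524 CPM in Tol 1, WT 3 and WT 4. Shox2 (ENSMUSG00000027833; chromosome 3, 66971727 to 66981771, minus strand), a homeodomain factor of thalamic and tectal neurons, gave 73.3 CPM in Tol 2 and 30.3 CPM in WT 1. It had 23 counts in WT 2, and in Tol 1, WT 3 and WT 4 it had 1, 1 and 2. The ranking was thus the same for Lhx9 and Shox2 in the top 3 libraries, and the remaining cerebella held little of either. Shox2 shares 153 exon bases with Rsrc1 on the opposite strand, and whether the counting used strand is not given in the sources used here, so its counts are less certain. The other 9 genes share no exon bases with another annotated gene.

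Per length, the order of the 3 factors was the same in Tol 2 and WT 1. In Tol 2 Tcf7l2 was at 31.2 CPM per kb, Shox2 at 22.1 and Lhx9 at 10.1, and in WT 1 they were at 15.5, 9.15 and 3.56. In WT 2, where all 3 were lower, Lhx9 (0.546 CPM per kb) was above Shox2 (0.303) and below Tcf7l2 (0.725). Tfap2d, a tectal transcription factor chosen after its values were seen, was at 26.9 CPM in Tol 2 and 14.01 CPM in WT 1, and at or under 1 count in the other 4 cerebella. No test was run on these orders, since each rests on 1 library.

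Pou4f1 (ENSMUSG00000048349; chromosome 14, 104461676 to 104467999, minus strand), a POU factor of the medial habenula, the tectum and sensory neurons, parted Tol 2 from WT 1. It was at 17.0 CPM in Tol 2 and at 0.0824 CPM in Tol 1, and at 0.587, 1.96, 0.270 and 0.131 CPM in WT 1 to WT 4. Tol 2 was 8.66 times the next library, which was WT 2 and not WT 1. Its relative Pou4f2, a factor of retinal ganglion cells and tectal neurons, stood at 23.0 CPM in Tol 2, 3.27 CPM in WT 1 and at most 0.959 CPM in the rest. Pou4f3 was at 1.94 CPM in Tol 2 and at most 0.0872 CPM elsewhere.

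Barhl2 (ENSMUSG00000034384; chromosome 5, 106452523 to 106458166, minus strand), a BarH-like homeodomain factor of the diencephalon and also of cells born in the cerebellar rhombic lip, moved against these 4 factors. It was lowest in Tol 2, at 7.98 CPM, and stood at 47.5 CPM in Tol 1 and at 35.2, 19.1, 43.8 and 35.6 CPM in WT 1 to WT 4. Tol 2 held 41.7% of the next lowest value, in WT 2. In cerebrum it was nearly absent, with 1 to 11 counts per library, and in thymus it had at most 3. Its relative Barhl1, placed on the granule cell list, was not low in Tol 2: it had 24.9 CPM there and 10.9 to 21.5 CPM in the others, and was the only 1 of the 12 granule cell genes that Tol 2 did not hold at least 2-fold below the rest.

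Prkcd (ENSMUSG00000021948; chromosome 14, 30595354 to 30626210, minus strand) encodes protein kinase C delta, a signalling enzyme often used to mark thalamic relay neurons and made in many blood cells as well. In cerebellum it was at 78.4 and 16.5 CPM in Tol 1 and Tol 2, and at 60.6, 48.9, 65.9 and 67.6 CPM in WT 1 to WT 4. The low library was Tol 2 again, at 33.8% of the next lowest, and WT 1, rich in Tcf7l2, was not raised. Of the related kinases, Prkca (89.2 to 142 CPM) kept Tol 2 inside the range of the others.

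Calb2 (ENSMUSG00000003657; chromosome 8, 110137502 to 110168210, minus strand) encodes calretinin, a calcium-binding protein of midline thalamic neurons and, in the cerebellum, of granule cells. It was the most abundant of the 10 per length of transcript in each WT cerebellum. Tol 1 and Tol 2 had 505 and 94.6 CPM, and WT 1 to WT 4 had 345, 230.0, 446 and 253 CPM. Tol 1 was the highest and Tol 2 the lowest cerebellum, at 41.1% of WT 2. Calb1, its relative on the Purkinje cell list, gave 1271 and 91.8 CPM in Tol 1 and Tol 2 and 471 to 1178 CPM in WT.

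Ntng1 (ENSMUSG00000059857; chromosome 3, 109780040 to 110144011, minus strand) encodes netrin-G1, an adhesion molecule on the axons of thalamic neurons. In cerebellum it was at 27.9 and 64.0 CPM in Tol 1 and Tol 2, and at 39.3, 48.2, 29.7 and 22.1 CPM in WT 1 to WT 4. Tol 2 was the highest, but by only 1.33 times over WT 2. Cerebrum reached as far: 24.3, 21.9, 31.8 and 23.0 CPM in Tol and 69.6, 18.4, 17.2 and 32.4 CPM in WT, with WT 1 alone high. Ntng2, the other netrin-G, was at 19.9 CPM in cerebellum Tol 2, 14.3 CPM in WT 2 and 7.14 to 8.64 CPM in the other 4.

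Synpo2 (ENSMUSG00000050315; chromosome 3, 123076519 to 123236149, minus strand) encodes an actin-binding protein of muscle cells, related to synaptopodin, that is also found in thalamic neurons. It varied least among the cerebella: 13.8 and 15.8 CPM in Tol, and 11.2, 10.3, 9.73 and 11.5 CPM in WT. Both Tol cerebella were above all 4 WT cerebella, and Tol 1, which was low in Slc17a6 and Tcf7l2, shared in this. In cerebrum the values were 8.34, 8.88, 7.10 and 13.9 CPM in Tol and 5.48, 6.62, 17.7 and 6.41 CPM in WT. The high values were those of Tol 4 and WT 3, the libraries with the most striatum genes, and the genotypes overlapped. Synpo, its relative, was at 214 to 280 CPM in all 8 cerebra, and was not raised in these 2 libraries (214 CPM in Tol 4 and 274 CPM in WT 3).

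**Figure D2:**
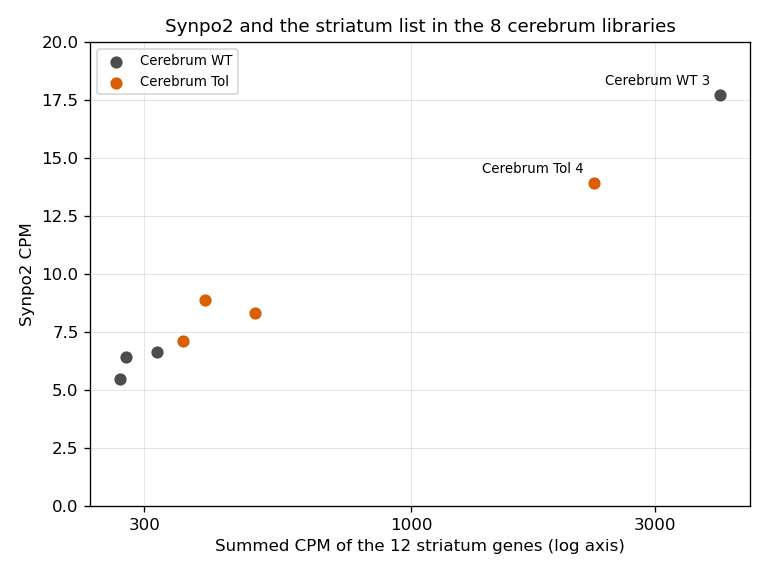
Synpo2 level in CPM against the summed CPM of 12 striatum genes (log axis) in the 8 cerebrum libraries, with 1 point per library, grey for WT and orange for Tol. WT 3 (17.7 and 4030 CPM) and Tol 4 (13.9 and 2281 CPM) lie apart from the other 6, in which Synpo2 ran from 5.48 to 8.88 CPM.

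Over the 10 genes, cerebellum Tol 2 had a median log2 ratio of 1.71 to the mean of the other 5 cerebella, on CPM + 1, against -0.04 over the 14754 genes with a mean of at least 1 CPM. The same median was 0.18 for WT 1, -0.58 for WT 2, -1.19 for WT 3, -1.36 for Tol 1 and -1.51 for WT 4. Each of these is set against a mean that includes Tol 2. In Tol 2, 5 of the 10 were at least 2-fold above the highest other cerebellum (2.55% of all genes were): Slc17a6, Tcf7l2, Lhx9, Shox2 and Pou4f1. Another 3, Prkcd, Calb2 and Barhl2, were at least 2-fold below the lowest (2.64% of all genes). Ntng1 and Synpo2 were highest in Tol 2 but by less. In Tol 1, 0 of the 10 were that far above (0.0136% of all genes) and 1, Slc17a6, that far below (0.0542%). For the WT cerebella these 10 gave 0 above and 0 below throughout, where all genes gave 0.0136% above and 0.0746% below in WT 1, 0.23% and 0.0203% in WT 2, 0% and 0% in WT 3, and 0.244% and 0.0542% in WT 4. Since these genes were chosen with this library in view, the counts describe it and test nothing.

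Other genes of the same regions were in part high in Tol 2. Of 12 tectum genes, 6 were at least 2-fold above the highest other cerebellum and 0 below the lowest, and their sum was 221 CPM against 59.3 to 94.1 CPM. Pax7, a factor of the superior colliculus, stood furthest above its highest counterpart on CPM + 1, with 28.8 CPM against at most 0.126 CPM. Also at least 2-fold above were Pou4f2 (23.0 CPM), Gata3 (17.8 CPM) and Tal1 (31.0 CPM), the latter pair being factors of midbrain GABA neurons. In WT 1, Gata3 was at 3.40 CPM and Tal1 at 5.92 CPM, the second highest values, but Pax7 had 3 counts. Among tectum genes Tfap2b had the highest CPM in all 6 cerebella. All 12 were detected in Tol 2, while 3 to 6 of them had 3 counts or fewer in each of the others.

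Of 12 thalamus genes, 4 were at least 2-fold above in Tol 2 and 2 below, and the sum, led by Rora in all 6 cerebella, was 666 CPM in Tol 2 against 635 to 1284 CPM. Lhx2 stood at 16.1 CPM, Tnnt1 at 7.26 CPM, Rorb at 54.3 CPM and Lef1 at 33.5 CPM in Tol 2. The other cerebella had at most 3.61 CPM of Lhx2, 2.43 CPM of Tnnt1, 21.8 CPM of Rorb and 8.80 CPM of Lef1. The 2 below were Ramp3 (2.34 CPM against at least 8.54 CPM) and Zic4 (9.31 CPM against at least 34.2 CPM), and Rora was lowest in Tol 2 as well, at 226 CPM against 300.2 to 641 CPM. Gbx2, a defining factor of the thalamus chosen after its values were seen, had 2 counts in Tol 2, 0 in Tol 1 and WT 1, and was highest in WT 2 at 0.523 CPM. Of 12 habenula genes, 4 were above and 1 below, with a sum of 115 CPM against 32.6 to 80.7 CPM. The peptide gene Tac1 had the highest CPM of this list in Tol 2 (34.2 CPM). The nicotinic receptor subunits Chrnb3 and Chrna3 were at 10.3 and 18.2 CPM there, and Tac2 was at 2.34 CPM. The gene below was Nr4a2, at 2.38 CPM against 14.6 to 38.1 CPM. Gpr151, which marks habenular axons and was chosen in the same way, was at 0.444 CPM in Tol 2 and 0.218 to 0.420 CPM in the others.

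Lists for other regions were mixed in Tol 2. The striatum list, with 5 of 12 genes at least 2-fold above and 1 below, gave more genes above than the thalamus or habenula list. The sum of the striatum list was nevertheless lowest in Tol 2, at 269 CPM against 286 to 408 CPM. The cortex and hippocampus list gave 2 above and 3 below, and the list of relatives of the 10 genes 4 above and 3 below. For the dopamine, serotonin and brainstem list the counts were 0 above and 1 below, and for the hypothalamus list 0 and 0. Oligodendrocyte genes gave 0 and 0, astrocyte genes 0 and 3, choroid plexus genes 0 and 1, and thymus genes 0 and 1. Some genes are on more than 1 list, such as Tac1 (habenula and striatum) and Otx2 (tectum and choroid plexus). In WT 2 the habenula list had 3 genes at least 2-fold above all other cerebella, and the tectum, hypothalamus and oligodendrocyte lists had 1 each. The brainstem list had 4 there, with Slc6a5, the glycine transporter of hindbrain and spinal neurons, at 205 CPM against 5.69 to 60.5 CPM. WT 2 was also the second highest cerebellum for Slc17a6 and Ntng1, with Tcf7l2 near the level of the low libraries.

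**Figure D3:**
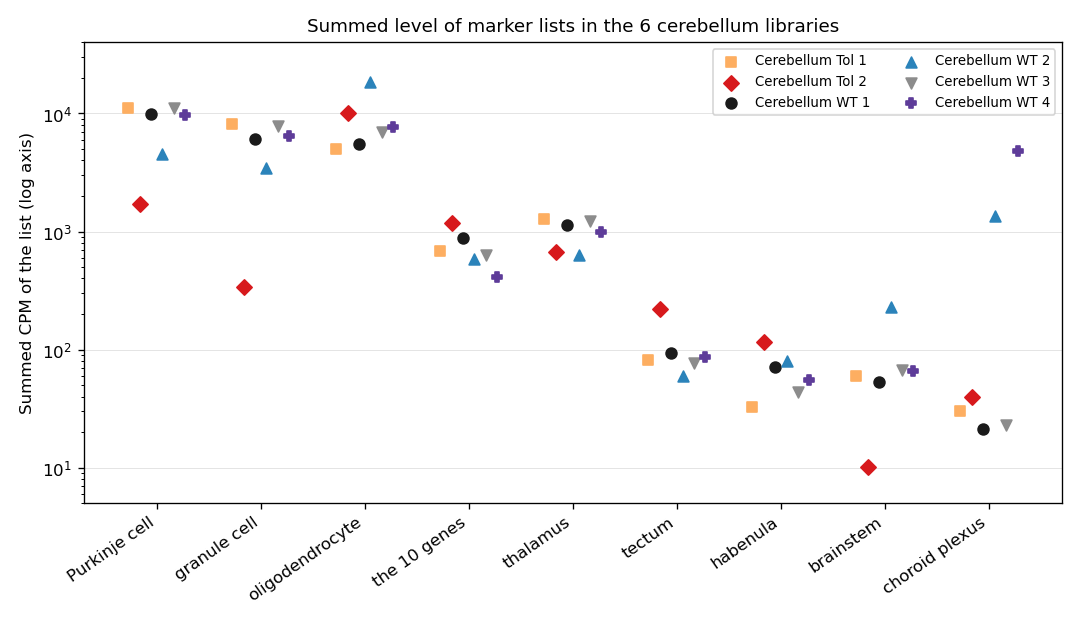
Summed CPM (log axis) of 9 gene lists in the 6 cerebellum libraries, with 1 marker shape and colour per library. Tol 2 is the lowest for the Purkinje cell (1714 CPM) and granule cell (337 CPM) lists and the highest for the tectum list (221 CPM), while WT 2 and WT 4 stand out for choroid plexus genes (1345 and 4813 CPM).

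The study's own comparison set Tol against WT within an organ, to ask whether the transgene altered gene activity. In cerebellum all 10 genes were tested, and 0 had an adjusted p under 0.05 in edgeR's quasi-likelihood test, as did 0 of all 16662 genes (0%). Over all genes, 527 had an unadjusted p under 0.05, and DESeq2 gave 8 with an adjusted p under 0.05. The median log2 fold change was 0.88 over the 10 genes and 0.01 over all tested. Pou4f1 had the largest, 3.57 (standard error 1.60, edgeR adjusted p = 0.957), followed by Lhx9 with 2.30 (standard error 1.92), Shox2 with 2.28 (standard error 2.42), Tcf7l2 with 1.93 (standard error 1.86) and Slc17a6 with 1.27 (standard error 1.66).

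These signs rested on 1 library. Leaving out Tol 2 leaves a single Tol cerebellum, assumed to vary like the WT cerebella. The log2 fold change was then -5.29 for Slc17a6, -3.06 for Tcf7l2, -3.93 for Lhx9, -7.40 for Shox2 and -3.08 for Pou4f1. Tol 1 held 1 count of Shox2 and 2 of Pou4f1, under the floor of 3 counts, so the size of these changes is uncertain. Prkcd, Calb2 and Barhl2 turned as well, from -0.34, -0.08 and -0.26 to 0.37, 0.66 and 0.51, and Ntng1 turned from 0.43 to -0.32. When WT 1 was left out too, an alternative chosen after seeing the data, Tcf7l2 was at -0.22 and Shox2 at -3.03, and with WT 2 also left out Tcf7l2 was at -0.06, Lhx9 at -0.15 and Slc17a6 at -3.11 (edgeR adjusted p from 0.889 to 0.995). Synpo2 alone of the 10 had an unadjusted p under 0.05 in cerebellum. Its log2 fold change was 0.50 (standard error 0.14) at an edgeR adjusted p = 0.957, and it was the only 1 of the 10 genes without overlap between the genotypes. Of all genes tested 5.22% had both Tol above all WT cerebella, 5.25% had both below, and 10.5% had either.

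In cerebrum 6 of the 10 genes passed the filter on low counts, and 0 of them had an edgeR adjusted p under 0.05, as did 0 of 15596 genes (0%). There, 1505 genes had an unadjusted p under 0.05 and DESeq2 gave 184 with an adjusted one. The log2 fold changes ran from -0.44 for Ntng1 (standard error 0.41, edgeR adjusted p = 0.771) to 0.07 for Synpo2 (standard error 0.39, edgeR adjusted p = 0.968), and 0 of the 6 lacked overlap. Of all genes tested 3.29% had Tol wholly above WT, 3.17% wholly below, and 6.46% either. Without WT 1, the log2 fold change of Ntng1 was 0.16 and that of Slc17a6 0.27. Lhx9, Shox2, Pou4f1 and Barhl2 were not tested. Lhx9 had 72 counts in Tol 3, 46 in WT 4 and 35 in WT 1, and 2 to 6 in the other 5 cerebra, so that each genotype held high and low libraries. In CPM the genotypes did not overlap for Shox2 and Pou4f1, but this was near the limit of detection. Shox2 had 0 or 1 count in Tol and 1 to 3 in WT cerebra, and Pou4f1 had 3 to 6 in Tol and 1 to 3 in WT.

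In thymus 4 of the 10 genes were tested and 0 called by edgeR, where 16 of 16248 genes (0.0985%; 0.0554% higher and 0.0431% lower) were called and 3965 had an unadjusted p under 0.05. DESeq2 called 1265. The Tol thymi held 101, 88.9, 104 and 92.6 CPM of Prkcd, the WT thymi 111, 111, 103 and 116 CPM. Most Tol thymi were below the WT thymi, with an overlap of Tol 3 and WT 3, with a log2 difference of -0.19 (standard error 0.06). The unadjusted p was under 0.05 and the edgeR adjusted p = 0.119. Without Tol 1 the edgeR adjusted p was 0.0420, to be read beside the 0 to 2981 genes called in such refits. For Synpo2 the Tol thymi gave 37.3, 26.5, 37.0 and 35.5 CPM, the WT thymi 42.9, 50.8, 38.2 and 40.7 CPM. Each Tol thymus was below each WT thymus, as for 5.51% of all genes tested (6.07% were above and 11.6% either), and 0 of the other 3 genes lacked overlap. The log2 difference was -0.33 (standard error 0.11), with an unadjusted p under 0.05 and an edgeR adjusted p = 0.121. For Tcf7l2, the Tol thymi ran from 5.48 to 6.89 CPM and the WT thymi from 5.79 to 8.36 CPM, a log2 difference of -0.08 (edgeR adjusted p = 0.784). Calb2, with 3 to 34 counts per thymus, came to 0.67 (standard error 0.39; edgeR adjusted p = 0.315).

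Between WT cerebrum and WT cerebellum 8 of the 10 genes were tested by edgeR, and 3 were called, all lower in cerebrum. Of all 15877 genes 49.8% were called, 25.6% lower and 24.2% higher. These were Barhl2, with a log2 difference of -7.00 (standard error 0.46; adjusted p = 1.37e-05), Calb2 with -5.20 (standard error 0.44, adjusted p = 3.98e-05) and Prkcd with -2.60 (standard error 0.13, adjusted p = 6.79e-06). They are the 3 genes that were low in cerebellum Tol 2. Tcf7l2 missed the threshold with -3.05 (standard error 1.18, adjusted p = 0.0585) and came to -0.19 without cerebellum WT 1 (edgeR adjusted p = 0.456), but to -3.40, -3.42 and -3.41 without WT 2, WT 3 or WT 4 (edgeR adjusted p from 0.0385 to 0.0419). Slc17a6 was at -1.41 (standard error 0.74, adjusted p = 0.144). It came to -1.75 without cerebellum WT 4 (edgeR adjusted p = 0.0420), and without cerebellum WT 1 and WT 2, an alternative chosen after seeing the data, at 0.79 (standard error 0.38, adjusted p = 0.129). Lhx9 was at -2.99 (standard error 1.37, edgeR adjusted p = 0.1003), and ran from -3.71 to -0.79 when 1 library was left out. Synpo2, at -0.23 (adjusted p = 0.611), came to -0.78 without cerebrum WT 3 (standard error 0.13, adjusted p = 0.00204). Of the relatives of these genes, 14 of 17 were tested, 8 higher and 3 lower in cerebrum. Lhx2 (5.66), Synpo (3.70), Ntng2 (2.06) and Slc17a7 (1.61) had positive log2 fold changes, and Barhl1 (-7.61) and Calb1 (-2.69) negative ones, with edgeR adjusted p values from 7.99e-06 to 0.000549.

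Between WT thymus and WT cerebrum 6 of the 10 genes were tested by edgeR, and all 6 were called (86.5% of all 16851 genes were), 3 higher in thymus (45.1%) and 3 lower (41.4%). Prkcd was higher by a log2 difference of 3.50 (standard error 0.09; adjusted p = 1.68e-10), Synpo2 with 2.28 (standard error 0.34, adjusted p = 9.69e-05) and Tcf7l2 with 0.55 (standard error 0.17, adjusted p = 0.0105). Ntng1 (-7.79), Slc17a6 (-7.30) and Calb2 (-4.07) were lower (adjusted p from 2.05e-08 to 2.90e-05). At most 8 counts of Slc17a6 and 12 of Ntng1 were seen in any thymus. The comparisons share the WT cerebra, so they are not independent of each other.

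Ordered by CPM per kb, the WT thymus had Prkcd first at 19.9 ± 0.936 (SD, n = 4), then Synpo2 at 3.30 ± 0.415, Tcf7l2 at 0.744 ± 0.141 and Calb2 at 0.283 ± 0.150, and the other 6 at 0.0754 or less. In WT cerebrum, Slc17a6 (7.74 ± 2.91), Calb2 (4.91 ± 2.70) and Ntng1 (4.17 ± 2.97) came first and overlapped in spread between mice. Within libraries, Slc17a6 was above Ntng1 in each WT cerebrum (11.8, 7.15, 7.05 and 4.93 against 8.44, 2.23, 2.09 and 3.93). Slc17a6 was above Calb2 in cerebrum WT 1, WT 2 and WT 3 but below Calb2 in WT 4. These orders were not tested. Prkcd (1.79 ± 0.240), Synpo2 (0.692 ± 0.442) and Tcf7l2 (0.516 ± 0.0706) followed, the last 2 within their spread, and Lhx9 was at 0.131 ± 0.137. In WT cerebellum, Calb2 (183 ± 56.4) led, followed by Slc17a6 (20.6 ± 18.7), Barhl2 (14.4 ± 4.46) and Prkcd (10.96 ± 1.52), and these 3 overlapped in spread. In the single library of cerebellum Tol 2 the order was Slc17a6 (95.5), Calb2 (54.3), Tcf7l2 (31.2), Shox2 (22.1), Lhx9 (10.1) and Ntng1 (7.76), with Pou4f1 at 3.63, Barhl2 at 3.45, Prkcd at 2.98 and Synpo2 at 1.21. Above 3 counts in every library of the organ were 8 of the 10 genes in cerebellum, 6 in cerebrum and 3 in thymus.

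Across the 6 cerebella, on log2(CPM + 1), Tcf7l2 and Shox2 had a Pearson r of 0.997, Tcf7l2 and Lhx9 0.969, and Prkcd and Pou4f1 -0.993. Prkcd, Calb2 and Barhl2 correlated with each other at 0.932 to 0.967. These values describe 6 libraries. Tol 2 and WT 1 were the highest for Tcf7l2, Lhx9 and Shox2, while Tol 2 alone stood apart for Prkcd, Pou4f1, Calb2 and Barhl2, and cells of all types in a sample share its library. Among the genes whose profile was most like the mean standardized level of the 10 genes over the 6 cerebella were Asns (r = 0.992), Sesn3 (0.991), Npy1r (0.990) and Syp (0.988), out of 14754 genes. Over the 14 brain libraries they were Peg3 (r = 0.956), Sema6a (0.952), Epm2aip1 (0.945), Irx2 (0.940) and Hcn4 (0.937), among 14879. The mean profile mixes genes that ran against each other in cerebellum: its r with Prkcd, Calb2 and Barhl2 was -0.69, -0.54 and -0.62 over the 6 cerebella, but 0.567, 0.709 and 0.675 over the 14 brain libraries.

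Promoter sequence is shown for 4 genes: Tcf7l2 and Shox2, which moved together most closely in cerebellum, and Slc17a6 and Synpo2, which have a window that holds a searched motif. RefSeq windows (GRCm38.p6) were given for 9 of the 10 genes, 12 windows in all, and not for Calb2. The 250 bases before each start were searched on both strands for TAATTA, a core of homeodomain sites that reads the same on both, and CTTTGAT (reverse complement ATCAAAG), the TCF/LEF core. TAATTA was in 2 of the 12 windows and in 4.84% of all 32851 windows of this length, and CTTTGAT in 0 of the 12 and in 3.21% of all. A match is only a run of letters, and its absence says nothing of a factor. The windows of Tcf7l2 (chr19:55741560-55741809, plus strand) and Synpo2 (chr3:123236150-123236399, minus strand) lie upstream of their genes. That of Shox2 (chr3:66981772-66982021, minus strand) lies upstream too, inside an intron of Rsrc1, and that of Slc17a6 (chr7:51624387-51624636, plus strand) before a start inside the gene, in an intron. The other window of Slc17a6, upstream of the gene, holds neither motif and is not printed, and neither does a window of Tcf7l2 inside the gene (GC content 40.8%), which is not printed. The GC content of the printed windows was 72.8% for Tcf7l2, 55.6% for Shox2, 41.2% for Slc17a6 and 54.4% for Synpo2. The median over all windows was 52.4%. Each is printed from 5′ to 3′ on the strand of its gene, with TAATTA in capitals:
Tcf7l2: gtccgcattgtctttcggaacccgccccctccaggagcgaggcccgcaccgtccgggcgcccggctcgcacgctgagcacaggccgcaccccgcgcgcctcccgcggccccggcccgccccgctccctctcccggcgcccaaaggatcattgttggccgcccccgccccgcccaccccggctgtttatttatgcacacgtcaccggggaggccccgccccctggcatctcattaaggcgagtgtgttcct
Shox2: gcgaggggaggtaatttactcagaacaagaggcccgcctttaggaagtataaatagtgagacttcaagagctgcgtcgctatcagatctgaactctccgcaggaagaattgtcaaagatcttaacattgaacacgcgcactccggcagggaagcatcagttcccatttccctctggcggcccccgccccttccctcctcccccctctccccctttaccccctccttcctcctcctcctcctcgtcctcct
Slc17a6: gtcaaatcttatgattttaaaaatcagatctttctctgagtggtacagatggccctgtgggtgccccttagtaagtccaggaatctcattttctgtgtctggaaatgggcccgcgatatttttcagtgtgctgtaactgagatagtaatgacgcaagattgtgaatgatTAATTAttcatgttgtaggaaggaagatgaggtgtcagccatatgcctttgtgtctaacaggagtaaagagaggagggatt
Synpo2: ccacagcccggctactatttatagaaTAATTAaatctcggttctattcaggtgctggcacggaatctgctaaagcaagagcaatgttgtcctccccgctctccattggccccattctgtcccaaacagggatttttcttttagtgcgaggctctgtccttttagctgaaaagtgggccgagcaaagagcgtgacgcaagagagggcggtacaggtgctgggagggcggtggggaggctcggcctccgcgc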

How the data were processed

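The deposited values were estimated counts per gene from Salmon 0.14.1, made by the authors on GRCm38 transcripts. How transcripts were summed to genes and whether strand was used are not given in the sources used here. All counts were whole, so the planned rounding was not needed. Of the sample columns 0 went unused. Genes were matched by Ensembl identifier to GENCODE vM21 for symbols and exon lengths, and RefSeq gave the promoter windows. The 10 genes and the lists of other genes were chosen with earlier results of these data known.

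Libraries were grouped by organ and genotype, with the columns marked MRT read as Tol; the counts of the Tol transcript fit that reading. Tol and WT libraries carry the same replicate numbers. Deviations from the group mean correlated between same-number libraries at -0.226 (cerebrum 3) to 0.563 (cerebellum 2). The same number was the closest match for some libraries and not for others, and the main fits were not paired. Whether same-number libraries of different organs came from the same mouse is not given in the sources used here. The organs were compared without pairing too. Each comparison was fitted in edgeR 4.0.16 (R 4.3.3) with filterByExpr and TMM factors and tested by quasi-likelihood. The p values were adjusted by Benjamini-Hochberg (BH) over all tested genes. The Tol transcript was left out of the fits. DESeq2 1.42.0, other filters and factors, a replicate block and leaving out libraries were tried as alternatives. The scripts were tested on simulated data.

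No pair of replicates was identical, and pairs differed by a chi-square per degree of freedom of 4.98 to 208. A level of 3 counts was taken as the floor. Genes of a list were named where they were relatives of the 10, highest in CPM, or furthest apart in cerebellum Tol 2, and others are marked as chosen after their values were seen. Some genes that this would name are not reported here.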

Additional observations from a re-analysis of the deposited data

Results flagged for a closer look

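Within each group of 4 libraries, a value was set apart when Dixon's ratio passed its critical value. Of 85 groups, 14 passed. The critical value is one that chance passes in about 1 in 20 independent groups. These genes and lists were chosen with earlier results of these data known and share libraries, so the count of 14 tests nothing. In cerebellum, WT 1 was the highest WT library for Tcf7l2 (136 CPM, next 6.36), Lhx9 (33.8 CPM, next 5.19) and Shox2 (30.3 CPM), and WT 2 for the summed dopamine, serotonin and brainstem genes (229.8 CPM, next 66.5). In cerebrum, Tol 3 was the highest Tol library for Slc17a6 (50.5 CPM, next 39.3), Lhx9 (3.55 CPM, next 0.291) and Shox2 (0.0493 CPM, a single count). The striatum genes summed to 2281 CPM in cerebrum Tol 4 (next 494) and to 4030 CPM in cerebrum WT 3 (next 317), and WT 3 was also apart for Synpo2 (17.7 CPM, next 6.62). In thymus, Tol 4 was apart for the summed habenula genes (9.67 CPM, next 7.91), WT 1 for Tcf7l2 (8.36 CPM, next 6.16) and Lhx9 (0.188 CPM, or 4 counts), and WT 3 for the lowest sum of Purkinje cell genes (207 CPM, next 237).

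The difference of group means for Synpo2, Tol minus WT, was 4.10 CPM in cerebellum and -9.06 CPM in thymus, opposite in sign. Whether the organs differ in this was not tested.

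With 2 Tol cerebella that were unlike each other, the comparison of genotypes in cerebellum had little power, and a high adjusted p does not show that a gene was equal. Each mouse gave 1 library per organ at most, dissection was not recorded in the sources used here, and cell composition was not measured.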

How the results depend on the processing

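Over 522 refits of single genes, 460 gave the same reading, 56 changed sign and 6 passed the threshold where the first fit did not. Sign changes fell on 18 of 40 results. Of the 15 results called at an edgeR adjusted p under 0.05, 0 changed sign and 0 were lost in the refits that tested the gene. Refits in which a gene was not tested are not counted. The filter of at least 10 counts in every library left out called genes such as Barhl2 between WT cerebrum and WT cerebellum. It also left out Slc17a6, Ntng1 and Calb2 between WT thymus and WT cerebrum. The median log2 ratio of the 10 genes in cerebellum Tol 2 stayed between 1.53 and 1.96 when any other cerebellum was left out.

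The number of genes called, Tol against WT, moved more. In cerebellum DESeq2 called 8, and leaving out 1 library gave 0 to 2. In cerebrum DESeq2 called 184, and leaving out 1 library gave 0 to 6. In thymus DESeq2 called 1265, no filter gave 130.0, at least 10 counts in every library gave 85, and leaving out 1 library gave 0 to 2981. The cause was not tested.

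Leaving out 1 cerebellum at a time, Tol over WT as a log2 value ran from -5.29 to 2.25 for Slc17a6, -3.06 to 4.73 for Tcf7l2, -1.84 to 0.37 for Prkcd, -3.93 to 4.45 for Lhx9 and -7.40 to 6.62 for Shox2. It ran from -3.08 to 4.69 for Pou4f1, -0.32 to 0.92 for Ntng1, -1.71 to 0.66 for Calb2 and -2.02 to 0.51 for Barhl2. Where this left 1 Tol cerebellum, the fit took the spread from the other libraries and the lone sample was assumed to vary like them. Shox2 and Pou4f1 were under the floor of 3 counts in Tol 1, so their values without Tol 2 are uncertain in size.

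Alternatives chosen after seeing the data left out more. Without Tol 2 and WT 1 the values were -4.93 for Slc17a6, -0.22 for Tcf7l2, 0.37 for Prkcd, -1.74 for Lhx9, -3.03 for Shox2, -3.17 for Pou4f1, -0.26 for Ntng1, 0.71 for Calb2 and 0.53 for Barhl2. Without WT 2 as well they were -3.11 for Slc17a6, -0.060 for Tcf7l2, 0.23 for Prkcd, -0.15 for Lhx9, 0.53 for Calb2 and 0.26 for Barhl2.

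With a block for the replicate number, as if same-number libraries were paired, cerebellum gave -2.20 for Slc17a6, -0.38 for Lhx9, -0.15 for Shox2 and -0.013 for Ntng1. The block gave 0.046 for Slc17a6 and 0.0023 for Calb2 in cerebrum, and 5 genes called in thymus.

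With 1 cerebrum at a time left out, the same log2 value in cerebrum ran from -0.17 to 0.27 for Slc17a6, -0.14 to 0.045 for Tcf7l2, -0.16 to 0.62 for Synpo2, -0.67 to 0.16 for Ntng1 and -0.36 to 0.21 for Calb2. In thymus it ran from -0.13 to 0.071 for Tcf7l2. For WT cerebrum over WT cerebellum, Ntng1 ran from -0.61 to 0.21, and was at 0.011 with DESeq2 size factors, 0.0091 in DESeq2 and 0.0032 with at least 10 counts in every library. Without cerebellum WT 1 and WT 2, Slc17a6 came to 0.79, Lhx9 to 0.80 and Ntng1 to 0.44.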

Other observations

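In cerebrum, Prox1, a gene of the dentate gyrus and thalamus named after its values were seen, was at 18.5, 13.1, 40.4 and 21.0 CPM in Tol 1 to Tol 4 and at 42.2, 17.3, 17.4 and 35.7 CPM in WT 1 to WT 4. Its 3 highest libraries, WT 1, Tol 3 and WT 4, were those with the most Lhx9. In cerebellum Tol 2, the collagen gene Col25a1, also named after its values were seen, stood at 121 CPM against at most 8.90 CPM in the others. These values were not tested.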
